A study of Mus musculus with 3 samples.

Results

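The regions described here are the distal guanine-adenine (GA) repeat peaks inside genes found by chromatin immunoprecipitation of GR, the glucocorticoid receptor, a transcription factor switched on by steroid hormone and made from Nr3c1. A peak was included where perfect tandem tracts, whose repeated unit is 1 to 6 bp long, with 3 units or more and a length of 8 bp or more, covered 50% or more of it and the GA dinucleotide on either strand covered the most bases. Its summit also had to lie over 5000 bp from every start of a protein-coding transcript and inside the body of any gene of GENCODE vM21. The rule used sequence and position and no measured value beyond the bounds of the peak and the place of its summit. The width of a peak thus bears on whether it was included. It found 543 of the 3087 listed peaks (17.6%, exact Clopper-Pearson 95% interval 16.3 to 19%). They were 37.4% of the 1452 GA repeat peaks, of which 782 lay as far from starts but between genes and 127 lay within 5000 bp of a start.

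The peak list came from 1 library made from nuclei of GR(i)skm-/- skeletal muscle (C57/Bl6J, 10 to 12 weeks old) titled as GR knockout and precipitated with an antibody to the C terminus of the receptor. The labels do not give the promoter that drives the deletion, the cells that keep the receptor or how many mice were pooled. A second list, of H3K27me3, a histone mark written by Polycomb proteins where genes are shut off, came from 1 library of wild-type (WT) muscle of the same strain and ages and was used by position only. An input library of GR(i)skm-/- muscle was the third sample and was not analysed here. No replicate and no GR library of WT muscle were among the samples used, so the values describe 1 library, and no value here separates a signal of the receptor from one present without it. A list of peaks holds no expression values, so neither the muscle origin nor the loss of Nr3c1 could be checked in it.

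A GA repeat carries only purines on one strand and only pyrimidines on the other. Such stretches can fold into triple-stranded DNA with mirror symmetry, and in flies they are bound by the GAGA factor, a protein that keeps promoters open. In mammals they are among the most frequent microsatellites, and most lie in introns and between genes. Transcription through a repeat gives RNA with a purine run where the purines are on the sense strand of the gene, and a pyrimidine run where they are on the antisense strand. The orientations are given separately.

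The sequences of the strongest peaks are printed on the purine strand, 5′ to 3′, with bases in perfect GA tracts of at least 8 bp in capitals, read from GRCm38 (mm10). The first 4 are the strongest with the purine run on the sense strand of the host gene. They lie in introns of Fgd6, a Cdc42 exchange factor (chr10:94087744-94087833, plus strand), the long noncoding genes Gm33203 (chr14:88324789-88324914, minus strand) and Gm30551 (chr13:103642843-103642971, minus strand), and Npas3, a neuronal transcription factor (chr12:54041629-54041735, plus strand).
Fgd6: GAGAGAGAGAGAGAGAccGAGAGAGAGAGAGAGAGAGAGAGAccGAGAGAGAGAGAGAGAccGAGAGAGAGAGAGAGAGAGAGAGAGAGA
Gm33203: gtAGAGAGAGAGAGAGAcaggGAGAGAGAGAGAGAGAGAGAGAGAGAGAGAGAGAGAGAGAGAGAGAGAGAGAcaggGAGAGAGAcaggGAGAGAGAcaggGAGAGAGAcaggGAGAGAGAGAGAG
Gm30551: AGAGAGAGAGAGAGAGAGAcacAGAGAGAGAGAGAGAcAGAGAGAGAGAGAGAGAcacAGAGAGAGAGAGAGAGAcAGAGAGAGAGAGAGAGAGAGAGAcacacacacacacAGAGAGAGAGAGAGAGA
Npas3: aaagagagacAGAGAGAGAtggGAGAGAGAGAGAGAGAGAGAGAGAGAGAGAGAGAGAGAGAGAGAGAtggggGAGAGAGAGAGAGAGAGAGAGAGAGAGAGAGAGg

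The strongest with the purine run on the antisense strand lie in introns of Erc2, a scaffold of presynaptic release sites (chr14:28448287-28448380, minus strand), Man1c1, a Golgi mannosidase (chr4:134608230-134608310, plus strand), Cdh23, a cadherin of hair cell tip links (chr10:60494882-60495032, plus strand), and Ankrd6, an ankyrin repeat protein of Wnt signalling (chr4:32811897-32811984, plus strand). In all of these 8 peaks other bases interrupt the GA tracts, and in some the same interruption recurs, such as cc in Fgd6, aac in Cdh23 and acc in Erc2. The strand given for each peak is that of the purine run.
Erc2: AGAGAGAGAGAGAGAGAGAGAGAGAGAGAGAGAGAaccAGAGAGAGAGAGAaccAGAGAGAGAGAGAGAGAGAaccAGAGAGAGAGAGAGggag
Man1c1: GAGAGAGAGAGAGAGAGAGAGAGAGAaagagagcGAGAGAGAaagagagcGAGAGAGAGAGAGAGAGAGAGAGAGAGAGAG
Cdh23: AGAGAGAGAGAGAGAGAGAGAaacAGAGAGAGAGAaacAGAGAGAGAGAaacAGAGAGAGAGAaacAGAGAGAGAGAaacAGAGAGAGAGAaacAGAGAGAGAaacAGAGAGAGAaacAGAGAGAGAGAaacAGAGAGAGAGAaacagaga
Ankrd6: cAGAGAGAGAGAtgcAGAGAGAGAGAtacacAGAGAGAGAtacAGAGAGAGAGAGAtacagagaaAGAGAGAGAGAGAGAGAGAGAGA

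The fold enrichment of the authors' peak caller, which adds 1 read to peak and background, was 66.7 in Fgd6, with 70 reads at the summit recovered from fold and -log10 p. It was 64.6 in Gm33203 with 72 reads, 57.9 in Gm30551 with 63 reads and 50.7 in Npas3 with 53 reads. On the antisense side it was 63.8 in Erc2 with 67 reads, 56.1 in Man1c1 with 62, 50 in Cdh23 with 54 and 48.5 in Ankrd6 with 57. The longest perfect tract touching these 8 peaks was 36 to 61 bp, while the peak that touched the longest perfect tract of all 543, 109 bp in Ppp1r12a, a targeting subunit of myosin phosphatase (chr10:108229751-108229808, plus strand, sense), had a fold of 15 and 15 reads. A pair of peaks with the lowest fold, in Adgrl3, an adhesion receptor (chr5:81555420-81555472, minus strand, antisense), and D430042O09Rik (chr7:125812476-125812528, plus strand, sense), had a fold of 12.1 and 12 reads each. Tandem tracts covered 60.4% of the Adgrl3 peak and all of the other.
Ppp1r12a: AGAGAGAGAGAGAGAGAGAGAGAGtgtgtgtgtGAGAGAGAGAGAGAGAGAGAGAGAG
Adgrl3: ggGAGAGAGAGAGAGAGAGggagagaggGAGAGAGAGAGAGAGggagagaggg
D430042O09Rik: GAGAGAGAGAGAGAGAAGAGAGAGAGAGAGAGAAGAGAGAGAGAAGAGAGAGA

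Across the 543 peaks the fold enrichment ran from 12.1 to 66.7 with a median of 16.8 and quartiles of 14.0 and 22.3. The summit held 12 to 72 reads (median 17). In 221 peaks (40.7%) it held 12 to 15, and in 30 (5.52%) it held 40 or more. The background was under 0.07 reads in 367 peaks (67.6%), so fold and read number carry nearly the same information. The distal GA peaks between genes had a median fold of 16, quartiles of 13.9 and 21.6 and a range of 12.1 to 70.4. All listed peaks had a median of 16.4. Inside genes the median was 16.3 for the 265 peaks with the purine run on the sense strand and 16.9 for the 264 with it on the antisense strand. The quartile ranges of these sets overlap almost fully. The differences were not tested, since peaks of 1 library are not replicates.

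**Figure D1:**
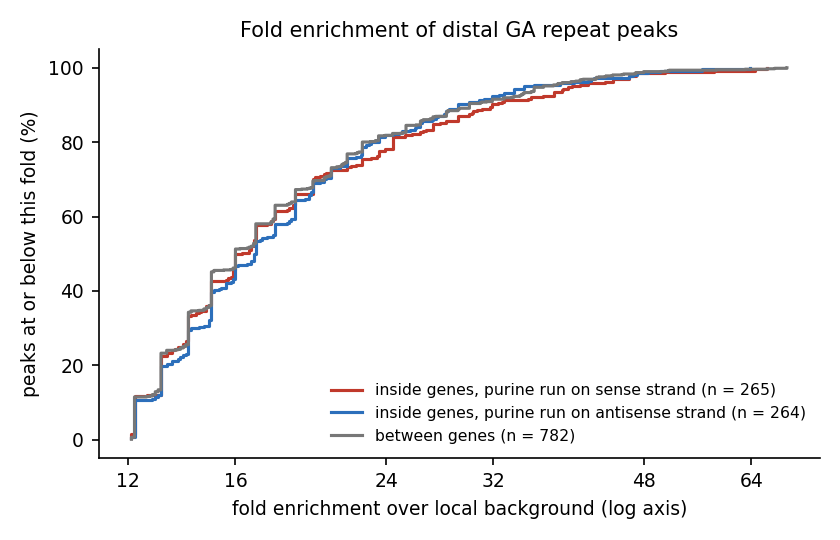
Cumulative share of peaks (percent, vertical axis) by the fold enrichment of the authors' peak caller (horizontal log axis) for distal GA repeat peaks inside genes with the purine run on the sense strand (265) or the antisense strand (264) of the host and for those between genes (782). The 3 curves run close together, with medians of 16.3, 16.9 and 16, and the steps at low fold come from whole numbers of reads.

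The remaining 12 of the 20 strongest peaks had a fold of 41.6 to 47.0. Among them were peaks in Spsb4, an adaptor of ubiquitin ligases (46.6), Kcnj16, an inward rectifier potassium channel (46.0), Megf9 (46.0), and Znrf3, the ubiquitin ligase that removes Wnt receptors (44.1). Others lay in Nkain3, a partner of the sodium pump (43.2), and Eps15, an endocytic adaptor (41.6). The other 6 lay in noncoding genes. These were 9530036O11Rik (47.0), Gm12068 and Gm41335 (46.9 each), Gm45335 (46.0), Gm29865 (44.1) and 4930552P12Rik (41.9). In all 20 the summit lay in an intron. The purine run was on the sense strand in 11 and on the antisense strand in 9, and 12 hosts were protein-coding.

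The peaks lay on interrupted GA repeats that were mostly longer than the peaks themselves. Perfect GA tracts touching a peak were chained over gaps of up to 20 bp into an array. The array had a median of 102 bp (quartiles 76 to 143) against a median peak width of 72 bp (quartiles 60 to 104, range 50 to 553), and it was longer than the peak in 415 peaks (76.4%, exact 95% interval 72.6 to 79.9%). Perfect tracts made up a median of 87.2% of the array. The rule favours peaks that lie within long GA repeats, and the array may run on outside the peak. Chaining over short gaps also keeps the share of perfect tracts high. The lengths and this share are therefore descriptions. The longest perfect tract had a median of 30 bp, 385 peaks (70.9%) touched one of at least 20 bp and 19 (3.50%) touched none of 12 bp. The longest uninterrupted run of purines had a median of 47 bp and reached 554 bp, with a median guanine share of 49.5%. No peak held GA tracts of both orientations: 0 of 543, which allows a share of up to 0.677% (upper bound of the exact interval). A second tandem unit was present in 102 peaks (18.8%). It was most often a blend of the GA and CA repeats, ACAG in 34 and ACAGAG in 28, or CA itself in 22.

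The summits lay near the middle of the arrays, which the choice of peaks covered mostly by tandem tracts largely fixes, so their place is a description. In 508 peaks (93.6%, exact 95% interval 91.1 to 95.5%) the summit was inside the array, in 13 it lay beyond the 5′ end of the purine strand and in 22 beyond the 3′ end. It was a median of 1 bp downstream of the centre of the array along the purine strand (quartiles -12 and 18 bp), and within 20 bp of the centre in 341 peaks. The array ran on beyond the peak on both sides in 303 peaks (55.8%), on the 5′ side only in 97, on the 3′ side only in 104 and on neither side in 39. Peaks between genes had a median array of 98.5 bp and quartiles of -10 and 12.5 bp for the summit. Across the 543 peaks, fold had a Spearman's rho of 0.173 with array length (Pearson's r 0.0706), 0.0195 with the longest perfect tract (r 0.0599) and -0.120 with the purine run (r -0.123). These are descriptions over peaks of 1 library that share its depth.

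**Figure D2:**
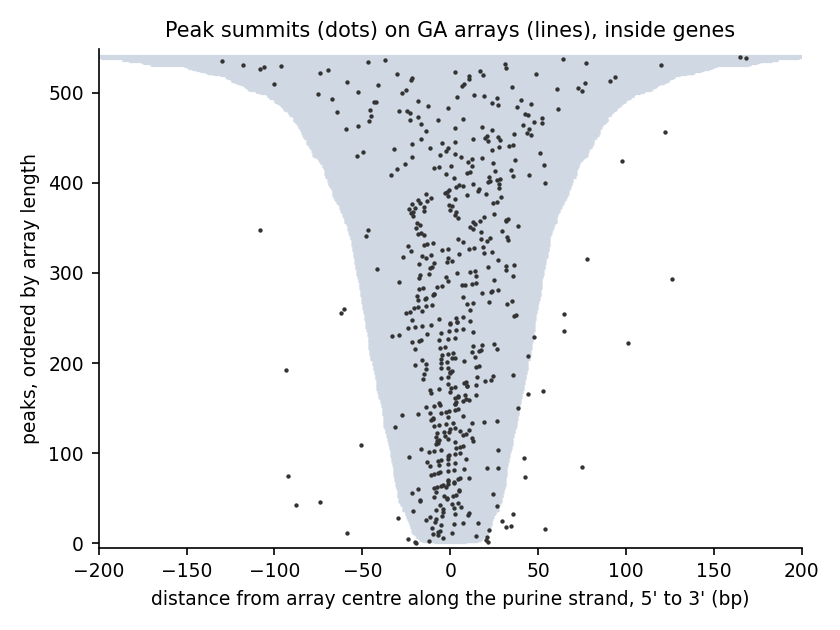
Summits (dots) on the GA arrays (horizontal lines) of the 543 peaks, ordered from the shortest array (18 bp) at the bottom to the longest (1575 bp) at the top. The horizontal axis is the distance from the centre of the array in bp along the purine strand, cut at 200 bp, which leaves out 4 summits. Most dots stand near the centre, 508 of them within their own array.

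The purine run was split almost evenly between the strands of the host gene. It lay on the sense strand in 265 peaks and on the antisense strand in 264, and 14 peaks had hosts on both strands. The share on the sense strand was 50.1% of 529 (exact 95% interval 45.7 to 54.4%). Of all distal perfect GA tracts of at least 20 bp inside genes with hosts on 1 strand, 21135 of 43786 (48.3%) had the purines on the sense strand, and the share in peaks did not differ from this beyond counting error (two-sided exact binomial p = 0.409). In protein-coding hosts the share was 48.6% (212 of 436), against 47.9% of tracts (two-sided exact binomial p = 0.811). In peaks with noncoding hosts only it was 54.9% (56 of 102, exact 95% interval 44.7 to 64.8%). No tract share is given for noncoding hosts, so this value has no background of its own. Several peaks share a gene, and with 1 peak per host gene the share was 51.0% of 473 (two-sided exact binomial p = 0.250). The interval of the share is nearly 9 percentage points wide, so a tilt of a few points was not detectable with this number of peaks.

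Few of the GA tracts inside genes carried a peak. Of the 45395 distal tracts of at least 20 bp inside genes, 622 (1.37%, exact 95% interval 1.27 to 1.48%) overlapped a GR peak of any class, against 1.24% of the 67964 between genes. With the purine run on the sense strand 300 of 21135 (1.42%) did, and with it on the antisense strand 309 of 22651 (1.36%). At each length the intervals of the orientations overlapped, and longer tracts had lower shares in both. For tracts of 20 to 29 bp they were 2.22% (1.84 to 2.65%) on the sense and 2.53% (2.14 to 2.97%) on the antisense strand, and for those of 60 bp and more 0.789% (0.460 to 1.26%) and 0.624% (0.341 to 1.04%). These are shares of perfect tracts and not of whole repeats, and 1 peak can cover several tracts. Peaks that touch no perfect tract of at least 20 bp are not in these shares.

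**Figure D3:**
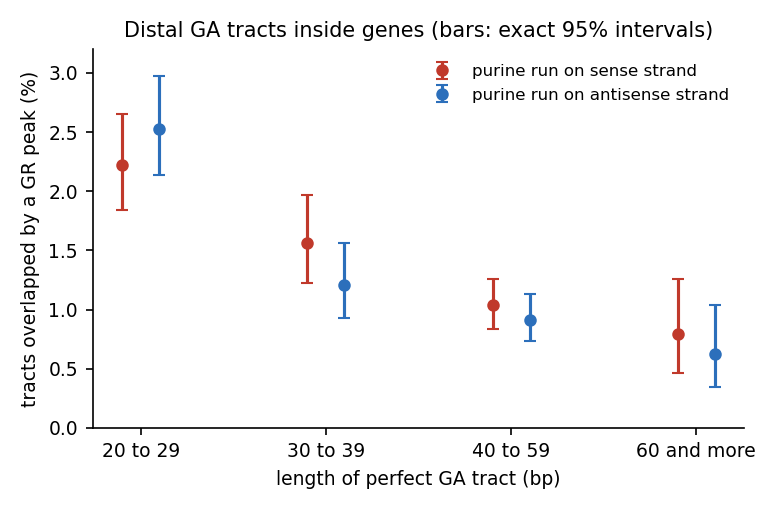
Share of distal perfect GA tracts inside genes that overlapped a GR peak (percent, vertical axis) by tract length in bp (horizontal axis), with the purine run on the sense strand (red) or the antisense strand (blue) of the host. Points are shares, and bars are exact 95% intervals for counting error. The intervals of the 2 orientations overlap at each of the 4 lengths, from 2.22 and 2.53% for the shortest to 0.789 and 0.624% for the longest.

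Where a CA repeat stood next to the GA repeat, it stood almost always on the 5′ side of the purine run. Of the 543 peaks, 121 (22.3%, exact 95% interval 18.9 to 26.0%) had a perfect CA tract of at least 12 bp within 30 bp of their GA tracts. It was on the 5′ side in 107, on the 3′ side in 8 and on both in 6. Read on the purine strand, the tract on the 5′ side was CA in 49 peaks and its complement TG in 58. The Fgd6 and Gm33203 repeats show this, and their arrays are printed with 60 bp before them, in which the lower-case tg run leads into the GA array (chr10:94087680-94087866, plus strand, and chr14:88324774-88324972, minus strand). These 2 windows were chosen after the values were seen.
Fgd6 with flank: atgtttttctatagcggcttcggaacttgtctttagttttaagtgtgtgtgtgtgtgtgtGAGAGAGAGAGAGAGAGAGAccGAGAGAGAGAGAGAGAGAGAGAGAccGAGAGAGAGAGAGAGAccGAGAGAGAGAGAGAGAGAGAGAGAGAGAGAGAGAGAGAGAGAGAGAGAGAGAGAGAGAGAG
Gm33203 with flank: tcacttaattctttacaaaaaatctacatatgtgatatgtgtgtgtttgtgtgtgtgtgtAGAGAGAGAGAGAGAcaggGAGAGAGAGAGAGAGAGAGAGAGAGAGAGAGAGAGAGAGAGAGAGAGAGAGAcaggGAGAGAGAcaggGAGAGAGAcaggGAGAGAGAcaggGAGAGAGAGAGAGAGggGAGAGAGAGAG

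GA tracts of the genome at large had the same order. For these the neighbour was sought around each tract alone. For peaks it was sought around all GA tracts of at least 12 bp touching the peak, or around the peak where there was none. The shares of peaks and of tracts are thus not like measures. Of all distal GA tracts inside genes, 30.4% had a CA tract on the 5′ side only and 1.06% on the 3′ side only, and between genes 27.4% and 0.549% did. The share under a peak was lower for tracts with a CA neighbour, by their intervals. Of the 14657 tracts inside genes with a CA tract on any side, 0.826% (exact 95% interval 0.685 to 0.986%) overlapped a peak of any class, against 1.63% (1.49 to 1.78%) of the 30738 without one. Between genes the shares were 0.771% (0.652 to 0.904%) and 1.43% (1.33 to 1.54%). The intervals do not overlap in either place. The difference was not tested further, and tracts in 1 array are not independent. Tract length was not held equal, and longer tracts had lower shares. The longest perfect tract had a median of 37 bp in the peaks with CA on the 5′ side and 29 bp in those without CA. The fold of the peaks with CA on the 5′ side had a median of 16.9, against 16.7 without a CA neighbour.

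**Figure D4:**
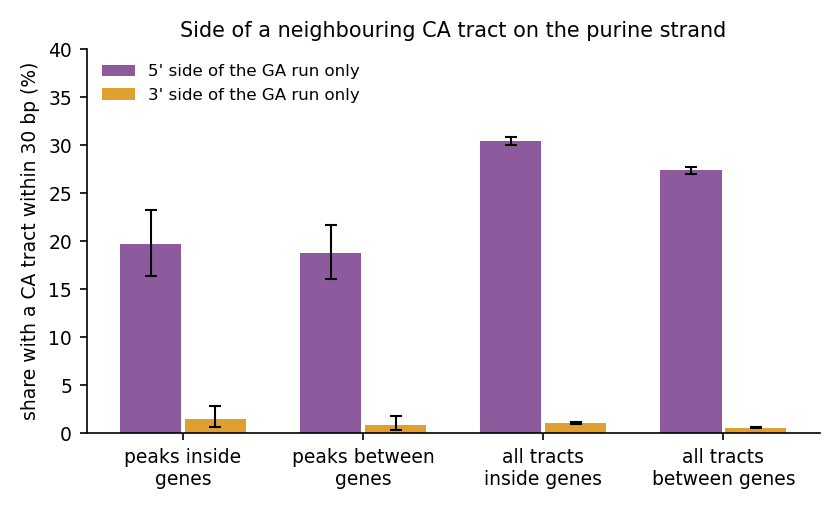
Share (percent, vertical axis) of distal GA peaks inside genes (543), those between genes (782), and all distal perfect GA tracts of at least 20 bp inside (45395) and between genes (67964) that had a CA tract within 30 bp on only the 5′ side (purple) or only the 3′ side (orange) of the purine run. Bars start at 0 and carry exact 95% intervals. The neighbour was sought around all GA tracts of at least 12 bp touching a peak, but around each background tract alone. Bars of peaks and of tracts are thus not like measures. The 5′ bar is 19.7, 18.8, 30.4 and 27.4% and the 3′ bar at most 1.47%.

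The host genes were mostly long protein-coding genes. The longest protein-coding gene over the summit, or the longest other gene where there was none, was taken as the host. It was protein-coding for 438 peaks (80.7%, exact 95% interval 77.1 to 83.9%), a long noncoding RNA gene for 95 (17.5%), and a pseudogene for 9, with 1 gene whose status the annotation gives as still to be experimentally tested. Of the 45395 distal GA tracts of at least 20 bp inside genes, 36790 lay in protein-coding genes, about the same share as of the peaks. Host length and intron share are not given for the tracts, so those of the peaks are descriptions. The hosts had a median length of 173 kb and the nearest protein-coding start was a median of 50.3 kb away (5.04 to 1527.3 kb), against 158 kb for peaks between genes. Summits lay in introns for 533 peaks (98.2%), in untranslated regions for 4, in exons of noncoding transcripts for 6, and in coding exons for 0 of 543. Along the host the peaks were spread over its whole length. From start to end, each successive 20% of the gene held 93, 106, 125, 101 and 118 peaks, and 1.25, 1.21, 1.39, 1.19 and 1.81% of the tracts there overlapped a GR peak of any class. The share of the last 20% had an exact 95% interval of 1.55 to 2.11%, above the intervals of the first 20% (1.01 to 1.52%), the second (1 to 1.45%) and the fourth (0.982 to 1.43%) and overlapping that of the middle 20% (1.17 to 1.65%). It was singled out after its value was seen. These intervals take tracts as independent, although several can lie under the same peak. In the last 20%, 160 tracts lay under a GR peak of any class, beside 118 of the peaks described here. In the first 20% it was 97 tracts beside 93 peaks.

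Of the 21938 protein-coding genes, 388 (1.77%) held a distal GA peak, and this share was higher in each longer class. It was 0.0934% for genes under 20 kb, 2.27% at 50 to 100 kb, 13.2% at 200 to 500 kb, 28.7% at 500 to 1000 kb (49 of 171) and 59.3% above 1000 kb (35 of 59). A longer gene has more room for GA tracts and for a summit over 5000 bp from every start. The rise is therefore largely fixed in advance, and no share per tract was computed by gene length. In all, 506 genes of any kind held a peak, 455 of them a single one, 44 held 2, 6 held 3 and 1 held 4.

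**Figure D5:**
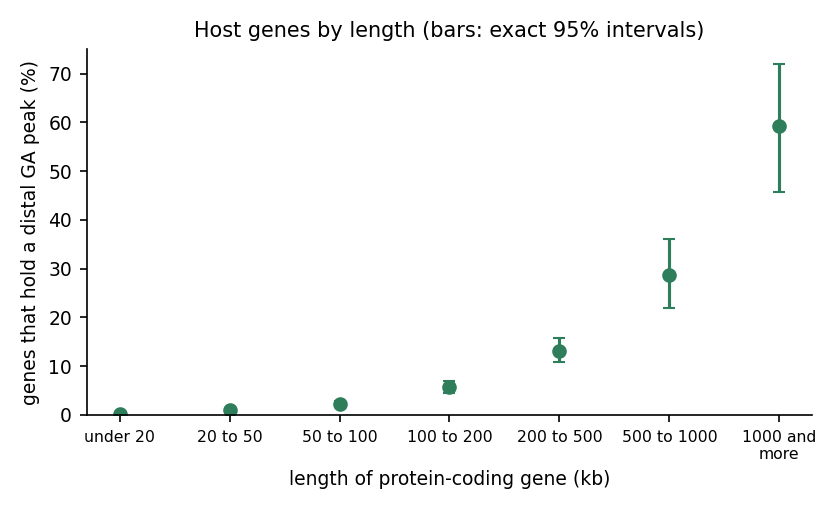
Share of protein-coding genes that held a distal GA repeat peak (percent, vertical axis) by gene length in kb (horizontal axis), with exact Clopper-Pearson 95% intervals as bars. It goes from 0.0934% of the genes under 20 kb to 59.3% of the 59 genes of 1000 kb and more. Longer genes have more room for GA tracts and for summits over 5000 bp from every start, so the rise is largely fixed in advance.

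The 10 genes with the most peaks were led by Lsamp, a neuronal adhesion molecule of 2197.3 kb, whose 4 peaks had a fold of 26.5, 19.7, 18.8 and 12.2, with the purine run on the sense strand in the first and on the antisense strand in the others. Pde4d, a cAMP phosphodiesterase, held 3 at 33.8, 21.6 and 18.8, all with the purine run on the antisense strand. Celf2, an RNA-binding splicing regulator, held 3 at 31.0, 22.5 and 13.8, and Negr1, a relative of Lsamp, 3 at 31.0, 29.1 and 13.1. Fgfr2, a fibroblast growth factor receptor whose body in this annotation spans 2960.9 kb, held 3 at 20.7, 16.7 and 12.2. Grm8, a metabotropic glutamate receptor, and Rbfox1, a splicing factor, held 3 each, at most 16.8 and 15. Of the genes with 2 peaks, the first 3 by symbol were 2010109I03Rik, Ank3, which anchors membrane proteins to spectrin, and Anks1b, with a highest fold of 20.1, 18.4 and 40.4. Both peaks of Anks1b had the purine run on the sense strand and both of Ank3 on the antisense strand.

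Few peaks were close neighbours. There were 11 pairs within 10 kb of each other, each pair in 1 gene, and 7 of them were within 1 kb. A single array carried 2 peaks in Immp2l, a mitochondrial inner membrane peptidase, with folds of 13.1 and 14.1 on an array of 249 bp. The same held for Qpct, which makes pyroglutamate ends of peptides, with folds of 16.9 and 18.8 on an array of 1575 bp (chr17:79087291-79088865). The peak of Qpct at chr17:79087435-79087497 was also the only peak among the 543 to overlap an H3K27me3 region of WT muscle (0.184%, exact 95% interval 0.00466 to 1.02%), and 0 of the 782 between genes did. The overlap over all 3087 listed peaks and the extent of the H3K27me3 regions are not given here. These counts thus do not show that GA peaks avoid the mark.

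Peaks in genes of muscle function were counted by list. Of 40 contractile and sarcomere genes (median length 23.5 kb) 1 held a peak (2.50%, against 1.77% of all protein-coding genes). It was Synpo2, an actin bundling protein of the Z-disc, at a fold of 16.8. Of 32 genes of excitation-contraction coupling and calcium handling (median length 60.9 kb) 2 did (6.25%). These were Cacna2d1, the calcium channel subunit, with peaks at 17.8 and 12.2, and Musk, the kinase that organises the neuromuscular junction, at 12.2, all 3 with the purine run on the antisense strand. Of 29 muscle energy genes (median length 36.9 kb) only Immp2l did (3.45%), and of 27 myogenic and satellite cell genes (median length 95.9 kb) 0 did. All these medians are above the 17.4 kb of all protein-coding genes. Counted per GA tract, 2 of 158 (1.27%, exact 95% interval 0.154 to 4.5%) in the coupling list lay under a GR peak of any class. In the energy list 0 of 148 did and in the myogenic list 0 of 191, which allow shares of up to 2.46% and 1.91%. All 3 intervals include the 1.35% of tracts in all protein-coding genes. Only perfect tracts of at least 20 bp are counted this way, and 385 of the 543 peaks touched one. Peaks on shorter tracts, such as the 2 of Immp2l, are thus missing from these shares. Of 27 genes of the dystrophin complex and membrane 5 held a peak (18.5%). They were Tln2, a talin of muscle attachment sites (25), Sntg1, a syntrophin (19.7), Dmd, the dystrophin gene (18.8), Sgcd, a sarcoglycan, and Sntb1, a syntrophin (13.1 each). Their list has a median gene length of 104 kb, against 17.4 kb for all protein-coding genes. Counted per GA tract, 1.51% of its 397 distal tracts overlapped a GR peak of any class (exact 95% interval 0.557 to 3.26%), against 1.35% of the tracts in all protein-coding genes.

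None of the 39 glucocorticoid-induced genes found in the annotation, among them Fkbp5, Per1 and Tsc22d3, held a distal GA peak. They are short, with a median of 14.5 kb, and hold only 40 distal tracts between them, so the 0 allows a share of up to 8.81% of their tracts (upper bound of the exact interval). Of 41 nuclear receptors and coregulators 3 did (7.32%, against 1.77% of all protein-coding genes). Their list has a median gene length of 80.6 kb, against 17.4 kb, and 6 of its 277 tracts lay under a peak (2.17%, exact 95% interval 0.799 to 4.65%), beside 1.35% overall. The 3 genes were Rorb (21.6) and Rora (13.1), retinoid-related orphan receptors, and Ncoa1, a coactivator of steroid receptors (16.9). The Ncoa1 peak was the one closest to the 5000 bp limit. All 3 lay in introns. The 6 tracts under a peak stand beside these 3 peaks, and tracts under the same peak are not independent.

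Of 56 long synaptic and adhesion genes, 27 (48.2%) held a peak. This list has a median length of 1072.7 kb and was made of long genes. Per tract, 1.53% of its 3330 tracts overlapped a GR peak of any class (exact 95% interval 1.14 to 2.01%), beside 1.35% in all protein-coding genes. Besides Negr1 and Lsamp, its hosts included Auts2 (27.6), Ctnna2, a catenin of neurons (24.4), and Nrg3 and Pcdh15 (19.7 each).

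Genes listed as markers of other cells of muscle also held peaks. Endothelial markers held them in 3 of 19 genes (15.8%, against 1.77% of all protein-coding genes, with a median length of 91.1 kb against 17.4 kb), Emcn, which encodes endomucin (31.9 and 14.1), Ptprb, a vascular phosphatase (29.1), and Ldb2 (21.6). Leukocyte markers held them in 2 of 22 (9.09%, median length 95.3 kb), Ikzf1, the lymphoid factor Ikaros (29.1), and F13a1 (24.4). Smooth muscle and pericyte markers held them in 2 of 14 (14.3%, median length 41.8 kb), Mylk (13.8) and Itga8 (13.1). Of 14 listed Schwann cell and neuromuscular markers (median 30.5 kb) only Csmd1 held peaks (7.14%), at 14.1 and 13.1. Csmd1 is 1643.0 kb long and is also in the list of long synaptic and adhesion genes. These medians are all above the 17.4 kb of all protein-coding genes. Of 20 fibroblast markers 0 held a peak. Per tract, 1.5% lay under a peak in the endothelial and in the leukocyte list (2 of 133 each, exact 95% interval 0.183 to 5.33%). The share was 1.16% in the Schwann cell list (2 of 173), and 0 of 82 in the fibroblast list, which allows up to 4.4%. The intervals of these 4 lists include the 1.35% of tracts in all protein-coding genes. Peaks that touch no perfect tract of at least 20 bp are missing from these shares. A peak in a gene is no measure of its expression, so these counts say nothing of which cells gave the DNA. In the tracts of the smooth muscle list, 5 of 63 (7.94%, exact 95% interval 2.63 to 17.6%) overlapped a peak. This was the highest share of any list, singled out after its value was seen, and neighbouring tracts can lie under the same peak. The list held 2 of the peaks described here, those of Mylk and Itga8. The exact interval takes the 5 tracts as independent and may be too narrow.

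The sequences of 4 peaks in genes of the lists are shown because they had the highest folds there. Ptprb, with a fold equal to the last of them, is not shown. They lie in introns of Emcn (chr3:137382015-137382094, minus strand, antisense), Ikzf1 (chr11:11745624-11745687, plus strand, sense) and Negr1 (chr3:156919206-156919269, plus strand, where a noncoding gene lies on the other strand, and chr3:156658726-156658793, plus strand, sense).
Emcn: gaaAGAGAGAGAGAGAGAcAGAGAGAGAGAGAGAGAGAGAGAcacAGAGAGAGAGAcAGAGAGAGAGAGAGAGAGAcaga
Ikzf1: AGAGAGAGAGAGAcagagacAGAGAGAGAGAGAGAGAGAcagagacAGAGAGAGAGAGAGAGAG
Negr1, first: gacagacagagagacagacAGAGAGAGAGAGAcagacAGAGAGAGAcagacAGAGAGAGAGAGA
Negr1, second: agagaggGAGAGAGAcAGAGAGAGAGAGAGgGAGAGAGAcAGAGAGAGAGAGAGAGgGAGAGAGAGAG

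The 10 peaks in exons included the strongest in Samd4b, an RNA-binding translational repressor, where an untranslated region of it or of the overlapping Pak4 held a peak at 39.5-fold with 43 reads and 98.6% of its bases in tandem tracts. D10Wsu102e had one in an untranslated region at 39.1, as did Ptprt, a receptor phosphatase, at 16, and 9330159F19Rik at 15. Ldb2 (21.6, overlapped by Gm43503), Vmn2r59, a vomeronasal receptor (17.8), Kctd8 (17.8, overlapped by Gm43229) and Gm37985 (15) had theirs in exons of noncoding transcripts. Gm14221 (14.8) and Gm45888 (13.3) were the last 2. Untranslated is used here where any annotated transcript of a gene over the summit marks the summit as such.

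No exact match to the receptor's full response element was found at these peaks. Exact matches were nearly absent from the flanks too, so this does not set the summits apart from them. The response element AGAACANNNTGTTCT, which reads the same on both strands, was in 0 of 543 windows of 200 bp around the summit, in 0 of the windows 1000 bp before and in 1 of those 1000 bp after. Its looser core ACANNNTGT was in 13 centres (2.39%) and in 44 and 37 flanks (8.10 and 6.81%). The hexamer AGAACA, searched on both strands and contained in the full element, was in 52 centres (9.58%) and in 98 and 82 flanks (18 and 15.1%). The centre windows hold the GA array itself, with its median of 102 bp. A missing match says only that these letters are not in the window.

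The limits of the rule cut through a continuous range. Just inside the coverage limit were peaks in Ms4a4b (50% covered, fold 16), Ptprd (51.3%, 12.2) and Onecut3 (51.3%, 26.0), and just outside it peaks in Tbx3os1 (49.9%, 18.4), Nlrp9b (49.7%, 16) and Esr1, an oestrogen receptor (49.7%, 13.9). Just beyond 5000 bp from a start were peaks in Ncoa1 (5039 bp, 16.9), Adam32 (5062 bp, 12.2) and Pakap (5112 bp, 14.4), and just short of it peaks in Hmox2 (4870 bp, 18.8), Pde6h (4868 bp, 15) and Rftn1 (4823 bp, 14.6). In 2 of the 543 peaks GA tied with a longer unit and was counted as GA, and 1 further peak in a gene tied between GA and CA and was left out. Chromosome X held 18 of the peaks and chromosome Y 0. Of the tracts inside genes on X 1.06% (exact 95% interval 0.648 to 1.63%) lay under a GR peak, and on the autosomes 1.39% did (1.28 to 1.5%). Single autosomes ranged from 0.891% on chromosome 2 (28 of 3142 tracts) to 2.63% on chromosome 10 (67 of 2549), so X lay within their range. Chromosome 10 held 40 of the 543 peaks.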

How the data were processed

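Per the labels and the submitters' processing notes, base calls came from bcl2fastq 2.17.1.14, reads were placed on mm10 by Bowtie 1.0.0, and MACS2 gave the peaks. Its version, its control and the handling of reads with several matches are not given in the sources used here. The deposited score is the -log10 q times 10 without decimals. The deposited fold is a ratio of reads at the summit to the local background, after adding 1 read to each. Each peak's -log10 p was deposited as the peak caller wrote it, beside a -log10 q that is never under 20. Peak numbers run to 12933 while 3087 are listed. Total reads are unknown.

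Reads at the summit were solved from fold and -log10 p under a Poisson model, within 0.001 for every peak. Peaks were placed on GRCm38 with GENCODE vM21, and tandem tracts were found within each peak. Genome tracts were placed by their midpoint, and an overlap with a peak of 1 bp counted as under it. Exact 95% intervals of shares (Clopper-Pearson) reflect only counting error. The strand share was tested with a two-sided exact binomial test. The scripts were checked on simulated data. Members, gene lists (13) and the rule for names were chosen with earlier results of these data known. The rule named hosts of the 20 strongest peaks, the 10 genes with most peaks, up to 8 hosts per list and in exons, and the peaks nearest each limit. Some genes under this rule are not reported here. Alternatives covered coverage, distance, start sites, midpoints, hosts, a stricter q, tract length, joining and overlap. Versions were scipy 1.17.1, pandas 2.3.3, numpy 2.4.6 and matplotlib 3.10.9 under Python 3.11.15.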

Additional observations from a re-analysis of the deposited data

How the results depend on the processing

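The number of peaks was 277 where tandem tracts had to cover 80% of a peak and 293 with a -log10 q of at least 30. Under the other 7 alternatives, 1 of them chosen after seeing the data, it was 438 to 594. The share of peaks with the purine run on the sense strand was 48.4 to 51.0% under the 6 alternatives, above the tract share in each, with two-sided exact binomial p-values of 0.250 to 1, so none passed 0.05. Taking the strand of the longest tract, or the midpoint in place of the summit, gave the same 265 of 529 as the main setting. The strand of the longest tract could not differ, since no peak held GA tracts of both orientations. The median fold was 16.7 to 16.8 under its 3 alternatives. The share of distal tracts inside genes under a peak, 1.37%, was 1.04% for tracts of at least 30 bp, 1.14% with tracts within 20 bp joined and 1.01% with an overlap of at least 20 bp. The single overlap with an H3K27me3 region also covered at least 50% of the peak. No paired analysis was possible because each group had 1 library. No library could be left out for the same reason. Total depth is unknown, and 12 reads were the fewest behind a listed peak, so GA repeats with fewer reads are not seen here.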
